A study of Homo sapiens with 12 samples.

Results

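JUN, NR4A3, MYC and MYCL are 4 of the 770 genes measured in HCT-116 cells, a long-established line from a human colorectal carcinoma, with NanoString nCounter, which counts barcoded probes bound to RNA molecules directly, with no amplification step. They were picked as transcription factors of growth and stress responses and chosen by their group means in all 3 deposited tables, so their values describe them and the p-values beside them are not independent support. In all, 4 groups were compared, each of 3 samples: heteronemin with tetrac (the combination), heteronemin alone, tetrac alone, and control, all collected at 24 h. Heteronemin is a marine sponge sesterterpenoid; tetrac (tetraiodothyroacetic acid) is a derivative of the thyroid hormone thyroxine that lacks its amino group. The labels state neither doses nor any vehicle given to control cells, and do not show whether replicates were grown as separate cultures, so p-values may measure technical spread only. The study's title names a block of EGF receptor signalling and of cell growth as its question.

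JUN encodes a subunit of AP-1, a dimeric transcription factor that is induced within minutes of stress or growth signals and is activated by JUN N-terminal kinases; its product can raise transcription of its own gene. NR4A3 encodes an orphan nuclear receptor of the NR4A group, which is also induced by many acute stimuli. MYC and MYCL encode paralogous factors that pair with MAX at E-box sequences. In colorectal tumours MYC is a target of WNT signalling through beta-catenin.

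The promoter windows of the 3 genes that were higher than control after heteronemin are shown because AP-1, CREB-type and NR4A factors read short sequences of this kind. Each runs from 250 bases before to 50 bases after the gene's start in RefSeq on GRCh38.p14, 5′ to 3′ on the gene's strand, with motif matches in capitals. JUN lies at chr1:58783998-58784297 on the minus strand, MYCL at chr1:39901868-39902167 on the minus strand and NR4A3 at chr9:99821635-99821934 on the plus strand.
JUN: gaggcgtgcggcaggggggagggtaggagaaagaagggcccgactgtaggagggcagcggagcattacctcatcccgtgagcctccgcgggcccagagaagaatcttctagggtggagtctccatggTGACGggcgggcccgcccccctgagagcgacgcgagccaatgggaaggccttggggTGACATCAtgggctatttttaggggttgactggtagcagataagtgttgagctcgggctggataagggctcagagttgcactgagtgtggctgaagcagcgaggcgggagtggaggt
MYCL: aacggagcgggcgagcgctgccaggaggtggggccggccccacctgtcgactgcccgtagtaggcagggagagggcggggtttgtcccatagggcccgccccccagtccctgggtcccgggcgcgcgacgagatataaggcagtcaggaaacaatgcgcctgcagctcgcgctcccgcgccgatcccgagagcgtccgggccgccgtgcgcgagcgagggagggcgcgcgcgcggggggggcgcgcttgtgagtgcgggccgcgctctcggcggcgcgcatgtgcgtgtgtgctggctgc
NR4A3: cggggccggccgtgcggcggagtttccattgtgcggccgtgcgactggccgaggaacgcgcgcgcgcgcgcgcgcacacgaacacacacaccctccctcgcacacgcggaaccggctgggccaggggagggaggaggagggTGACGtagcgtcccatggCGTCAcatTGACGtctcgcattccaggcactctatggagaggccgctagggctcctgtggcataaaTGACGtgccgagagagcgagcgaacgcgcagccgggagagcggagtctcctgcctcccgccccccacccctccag

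The motifs searched, on both strands, were the AP-1 element TGANTCA, the CRE-like element TGACNTCA, the CRE core TGACG, the canonical E-box CACGTG and the NR4A element AAAGGTCA. A CRE-like match with G at its variable base would also hold the CRE core. The JUN window held 1 CRE-like match, TGACATCA, whose first base is 67 bases before the start, and 1 CRE core, 123 bases before it. The NR4A3 window held 4 CRE cores, beginning 109, 91, 83 and 25 bases before the start, of which that at 91 reads CGTCA on the printed strand. The MYCL window held none of these letters. Among 35116 promoter windows of this length, 7.71% held TGANTCA, 7.72% TGACNTCA, 24.6% TGACG, 7.26% CACGTG and 1.22% AAAGGTCA. These matches describe the windows and say nothing of binding in these cells.

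The authors deposited 1 normalized mean per group and gene, so no value per sample, SD or depth stands behind the levels below. The lowest listed mean, 33, was taken as a floor; 90 genes were at it under the combination, 70 after heteronemin and 61 after tetrac, against 279 in control. A gene was called where the authors' deposited p-value, printed to 2 decimals and not adjusted, was under 0.05, and rose or fell is used in that sense; no gene of the panel passed Benjamini-Hochberg adjustment of the largest p that rounding allows. On that rule 3 of the 4 genes (JUN, NR4A3 and MYCL) were called higher under the combination, where 8.16% of 686 tested genes were, and the same 3 after heteronemin, where 11.2% of 704 were. After tetrac 0 of the 4 genes were called in either direction, where 1.26% of 714 tested genes were. Since these contrasts chose the genes, nothing is read from their count.

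JUN had the largest log2 ratios of the 4 genes under the combination and after heteronemin. Its authors' mean was 569 normalized counts under the combination, 419 after heteronemin, 126 after tetrac and 119 in control. Both groups that received heteronemin stood well above the other 2, and tetrac alone lay close to control. The combination was 4.77-fold above control (log2 ratio 2.25), the second highest log2 ratio of 770 genes, and heteronemin 3.51-fold (log2 ratio 1.81), the fourth highest; the p in the authors' deposited table was printed as 0, which stands for any p below 0.005, in both. Tetrac over control was 1.05-fold, with p = 0.64 in the authors' deposited table.

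MYCL was low in control, near the floor. Its authors' mean was 105 normalized counts under the combination, 118 after heteronemin, 48.4 after tetrac and 36.5 in control. Heteronemin alone was at the top, where JUN had the combination; tetrac lay between the heteronemin groups and control, as for JUN. Its ratio to control was 2.88 under the combination and 3.23 after heteronemin, each with p printed as 0 in the authors' deposited table. After tetrac the ratio was 1.33 (p = 0.48 in the authors' deposited table). The control mean was only 1.11 times the floor, so these ratios depend on where the floor was set.

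NR4A3 moved less. Its authors' mean was 94.5 normalized counts under the combination, 103 after heteronemin, 76.4 after tetrac and 64.8 in control. Heteronemin alone was again highest and tetrac lay between. The ratio to control was 1.46 under the combination (p = 0.02 in the authors' deposited table), 1.58 after heteronemin (p = 0.01) and 1.18 after tetrac (p = 0.65).

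MYC was the member that was called in none of the comparisons. Its authors' mean was 2351 normalized counts under the combination, 1964 after heteronemin, 1843 after tetrac and 2068 in control. The combination was the only group above control, and both single agents lay below it, although heteronemin turned to a log2 ratio of 0.0072 when the housekeeping median was subtracted. The log2 ratio to control was 0.18 under the combination (p = 0.09 in the authors' deposited table), -0.07 after heteronemin (p = 0.54) and -0.17 after tetrac (p = 0.35). With no spread per group, neighbours in the order of the 4 groups cannot be separated for this gene. Likewise, the combination and heteronemin alone cannot be told apart for JUN, MYCL or NR4A3, nor can tetrac and control.

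**Figure D1:**
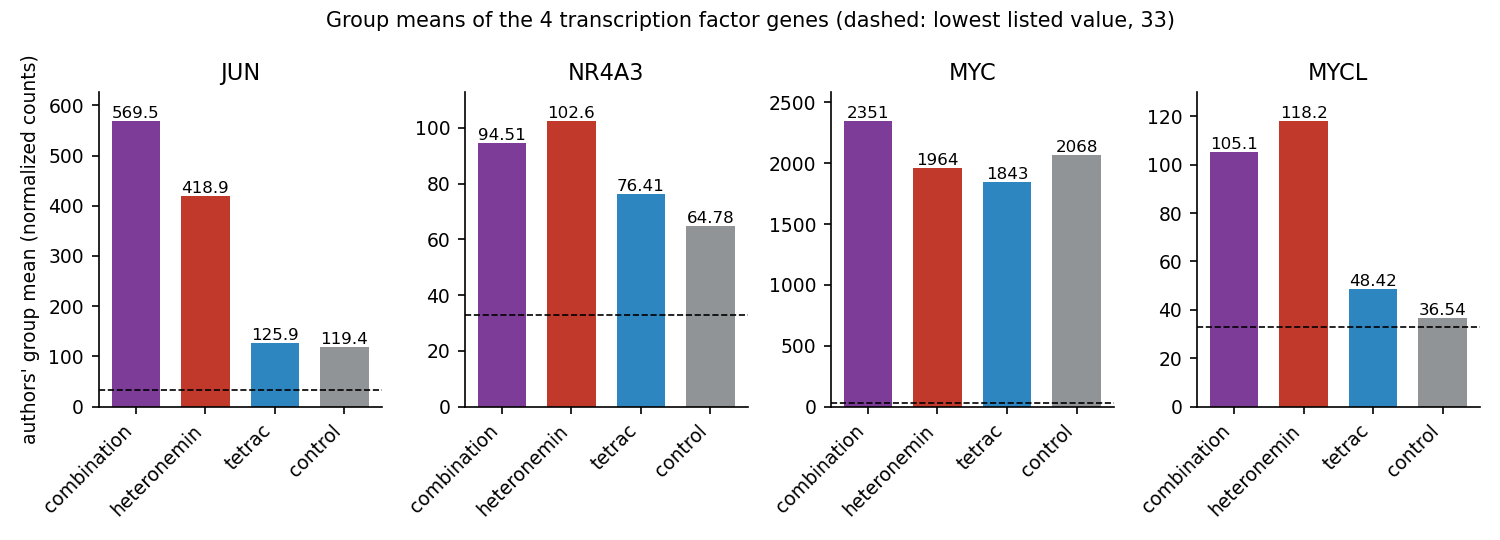
Authors' group means in normalized counts for JUN, NR4A3, MYC and MYCL, 1 bar per group and a vertical scale of its own for each gene; the dashed line is the lowest listed value, 33, and no error bars can be drawn from group means. JUN reached 569 under the combination and 419 after heteronemin, against 119 in control, while MYC stayed between 1843 and 2351 in all 4 groups.

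**Figure D2:**
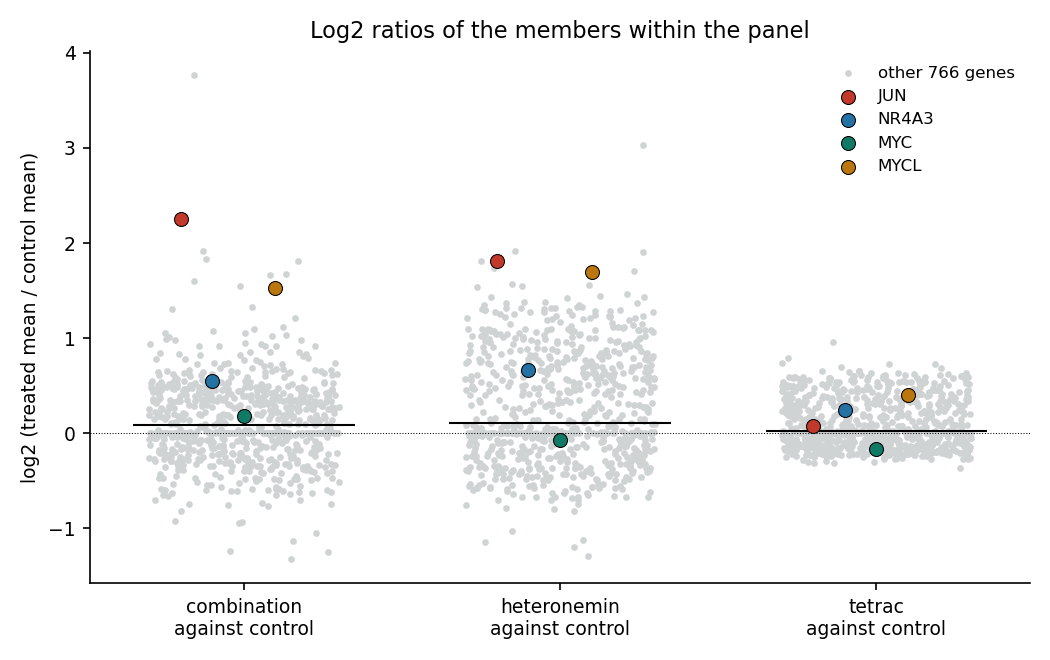
Log2 ratio of treated over control mean for the other 766 panel genes (grey points, spread sideways at random) and the 4 genes (coloured), in each comparison; the black line is the median of all 770 genes. JUN and MYCL lay near the top under the combination and heteronemin, and all 4 lay within the bulk of the panel after tetrac.

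The log2 ratios of the panel depended on the control level. Weakly counted genes tended to have positive ratios and strongly counted genes negative ones in all 3 comparisons, most clearly after heteronemin. Each member was therefore set beside the 51 genes nearest to it in control mean. For JUN, whose neighbours had control means from 94.0 to 152, the median log2 ratio of the neighbours was 0.02 under the combination and 0.20 after heteronemin, and JUN ranked first among these 52 genes in both. For MYCL the neighbours' median was 0.51 under the combination and 1.03 after heteronemin, and MYCL ranked 3 and 4 of 52. For NR4A3 the neighbours' median was 0.32 under the combination, below its own 0.54, and 0.61 after heteronemin, close to its own 0.66. It ranked 16 and 22 of 52. So the NR4A3 ratio was above the median of genes of like control level by 0.22 under the combination and by 0.05 after heteronemin. After tetrac the neighbours' median was 0.37 for MYCL and 0.11 for NR4A3, against their own 0.41 and 0.24. They ranked 23 and 16 of 52. For JUN it was 0.0037 against its own 0.08, at rank 17.

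MYC stood on the other side of this trend. Its 51 neighbours, with control means from 1139 to 3562, had a median log2 ratio of -0.31 under the combination, -0.42 after heteronemin and -0.16 after tetrac. MYC lay 0.49 above them under the combination and 0.35 above them after heteronemin, ranking 6 and 8 of 52. After tetrac its difference from them was -0.00353, at rank 28. These ranks have no test.

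**Figure D3:**
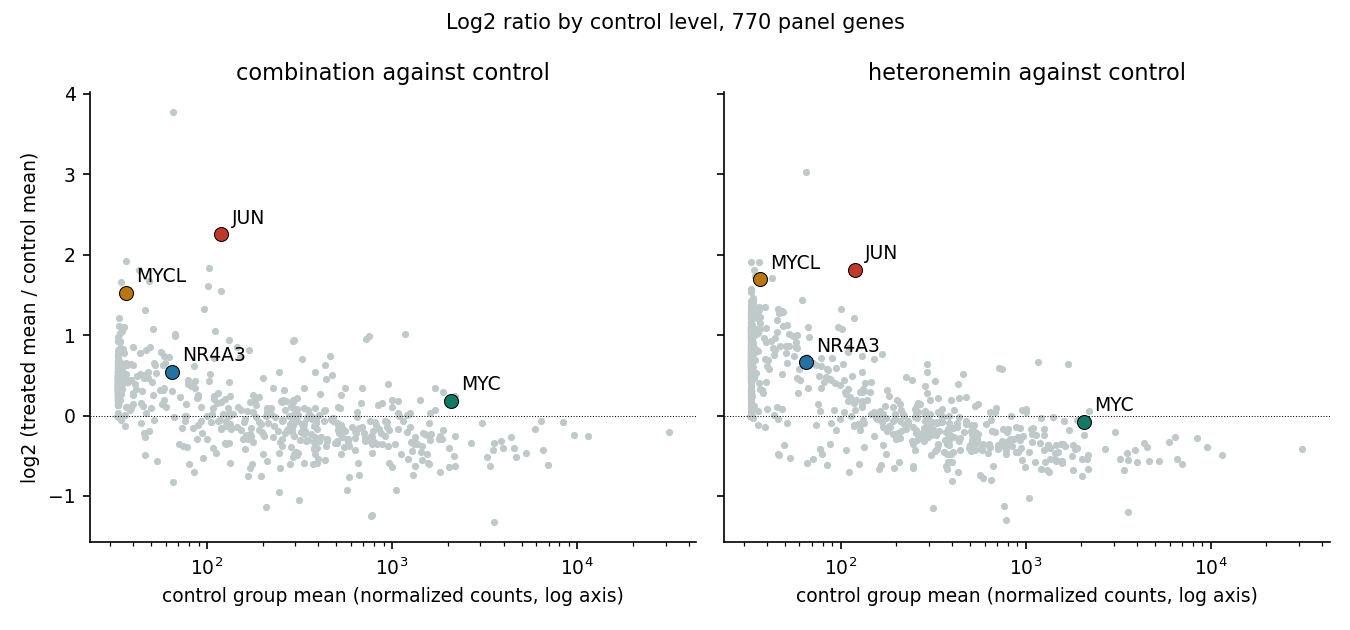
Log2 ratio of treated over control mean against the control mean (log axis, normalized counts) for the other 766 genes (grey) and the 4 genes (labelled), under the combination (left) and after heteronemin (right). The grey cloud falls with rising control level; JUN stands above the genes at its level, NR4A3 lies among them, and MYC lies in the upper part of the genes at its level.

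The 2-by-2 layout of the study also sets the combination against each single agent, without a test since the tables hold none. JUN was 1.36-fold higher under the combination than after heteronemin (log2 ratio 0.44), the seventh highest of 770 genes in that contrast, and 4.52-fold higher than after tetrac. MYC was 1.20-fold higher under the combination than after heteronemin (log2 ratio 0.26, rank 42 of 770) and 1.28-fold higher than after tetrac. MYCL and NR4A3 were lower under the combination than after heteronemin, at log2 ratios of -0.17 and -0.12, where the median of all genes was -0.05. From the highest, MYCL ranked 452 and NR4A3 422 of 770 in that contrast.

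The departure of the combination from the sum of the single-agent log2 ratios was 0.37 for JUN and 0.43 for MYC, so both were above the sum. It was -0.57 for MYCL and -0.36 for NR4A3, below the sum, where the median of all genes was -0.08. From the lowest of 770 genes, MYCL ranked 228 and NR4A3 298, while from the highest JUN ranked 58 and MYC 35. With 33 added to all means, the departure was -0.36 for MYCL and -0.25 for NR4A3. MYCL and NR4A3 are the members with the lowest control means. Between the single agents, heteronemin was above tetrac by 3.33-fold for JUN, 2.44-fold for MYCL, 1.34-fold for NR4A3 and 1.07-fold for MYC.

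The relatives and partners of these factors on the panel were few. Of 16 listed AP-1 and ATF factors only JUN and MAF, which encodes a basic leucine zipper factor, were measured, and neither FOS nor ATF genes are analysed here. MAF had an authors' mean of 43.7 normalized counts under the combination, 88.8 after heteronemin and 50.8 after tetrac, against the floor of 33 in control, and was not called. Of 18 listed MYC network genes, MYC and MYCL were measured. NR4A1, the paralogue of NR4A3, had an authors' mean of 80.5 normalized counts under the combination, 80.5 after heteronemin and 72.6 after tetrac, against 51.4 in control. Its ratios to control of 1.57, 1.57 and 1.41 were called in no comparison (p = 0.13, 0.28 and 0.41 in the authors' deposited table). Among the other nuclear receptors, the glucocorticoid receptor gene NR3C1 rose 1.40-fold after heteronemin (p = 0.03 in the authors' deposited table), and RORA was at the floor in control and not called.

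Kinases and small GTPases upstream of AP-1 did not include a called rise. Of 11 measured genes, 2 were called lower under the combination and 3 after heteronemin, and 1 after tetrac; the background of lower calls was 14.1%, 15.9% and 0.98%. MAPK3, which encodes the kinase ERK1, had an authors' mean of 343 normalized counts under the combination, 340 after heteronemin, 476 after tetrac and 586 in control, and was called lower in all 3. CDC42, a small GTPase that can feed into JNK signalling, fell by 0.34 on the log2 scale under the combination and by 0.42 after heteronemin. MAP3K7, encoding the kinase TAK1, fell by 0.21 after heteronemin. MAP2K4, which encodes a kinase that activates JNK, had log2 ratios of -0.21, -0.22 and -0.06 and was not called. The median log2 ratio of the 11 genes was -0.18 under the combination and -0.27 after heteronemin, where the median of all genes was 0.09 and 0.11. None of the 11 was at the floor in control, where 279 of the 770 panel genes were. The control mean of CDC42, 2671, lay within the range of MYC's 51 neighbours in level. Their median log2 ratio was -0.31 under the combination and -0.42 after heteronemin. The part of level in these falls was not tested. HRAS, RAC1, MAP2K1 and MAP2K2 were called in no comparison.

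Genes known as AP-1 targets were examined as a list chosen with earlier results of these data known. Of 27 measured, 9 of 25 tested rose and 3 fell under the combination, where 8.16% and 14.1% of all tested genes did. After heteronemin 9 of 26 rose and 4 fell, where 11.2% and 15.9% of all tested genes did. Among genes with a control mean of 100 or more, the risers numbered 5 under the combination and 3 after heteronemin, and at a p under 0.01 those after heteronemin numbered 3. The shares of all genes called under these stricter rules were not computed, so these smaller counts have no background to be read against. After tetrac 0 rose and 1, the urokinase gene PLAU, fell. The list's median log2 ratio was 0.30 under the combination, 0.44 after heteronemin and 0 after tetrac, where that of all genes was 0.09, 0.11 and 0.02. Of the 27 genes, 6 were at the floor in control, where 279 of the 770 panel genes were. Among the risers, SPP1 and PTGS2 had control means of 36.4 and 38.9, near the floor, while VEGFA stood at 461. The median log2 ratio of MYCL's 51 neighbours, at levels like those of SPP1 and PTGS2, was 0.51 under the combination and 1.03 after heteronemin. The part of level in these rises was not tested.

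CXCL8, the gene of interleukin-8, a chemokine that attracts neutrophils, led the list, with an authors' mean of 892 normalized counts under the combination, 535 after heteronemin, 74.4 after tetrac and 65.5 in control. As for JUN, its mean was higher under the combination than after heteronemin alone, an order that has no test. The osteopontin gene SPP1 had an authors' mean of 137 in both heteronemin groups, 44.9 after tetrac and 36.4 in control. Unlike JUN and CXCL8, its means in the 2 heteronemin groups were nearly equal. LAMB3, a laminin-332 chain, rose 3.57-fold under the combination, and the haem oxygenase gene HMOX1 2.50-fold. The prostaglandin synthase gene PTGS2 rose 2.55-fold after heteronemin and had a log2 ratio of 0.44, not called, under the combination. Vascular endothelial growth factor, VEGFA, rose 1.67-fold under the combination and had a log2 ratio of 0.52, not called, after heteronemin. EGFR, the receptor named in the study's title and also listed as an AP-1 target, fell by 0.31 under the combination and by 0.38 after heteronemin on the log2 scale.

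Of 14 measured genes known as MYC targets, 3 rose and 4 fell under the combination, and 2 rose and 7 fell after heteronemin, against the shares of all tested genes given above; after tetrac 0 rose and 1, the glucose transporter gene SLC2A1, fell. The list mixes genes that MYC is known to activate with genes that it is known to repress. Of the genes it represses, NDRG1 rose by 0.95 under the combination and by 0.59 after heteronemin on the log2 scale, and THBS1, the thrombospondin gene, rose by 0.61 and 0.57. CDKN1A, the p21 gene, which MYC also represses, did not follow them: it fell by 0.46 after heteronemin and had a log2 ratio of -0.22, not called, under the combination. Among activated genes, LDHA, the lactate dehydrogenase gene, had an authors' mean of 4543 normalized counts under the combination, 4594 after heteronemin, 6214 after tetrac and 6960 in control, and was called lower in both heteronemin groups. ID2, an inhibitor of helix-loop-helix factors, fell by 1.25 under the combination and by 1.12 after heteronemin on the log2 scale. VEGFA, also on this list, rose by 0.74 under the combination. The hexokinase gene HK2 had log2 ratios of 0.01 and -0.01, and it and the glycolytic genes ENO1 and PKM and the nucleolin gene NCL were called in no comparison. CDKN1A, HK2, ENO1, PKM and NCL were named after their values were seen. The list's median log2 ratio was -0.34 under the combination and -0.43 after heteronemin, where that of all genes was 0.09 and 0.11. Most of these genes are among the strongly counted ones, whose neighbours in level also had negative ratios; the part of level in these calls was not tested.

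**Figure D4:**
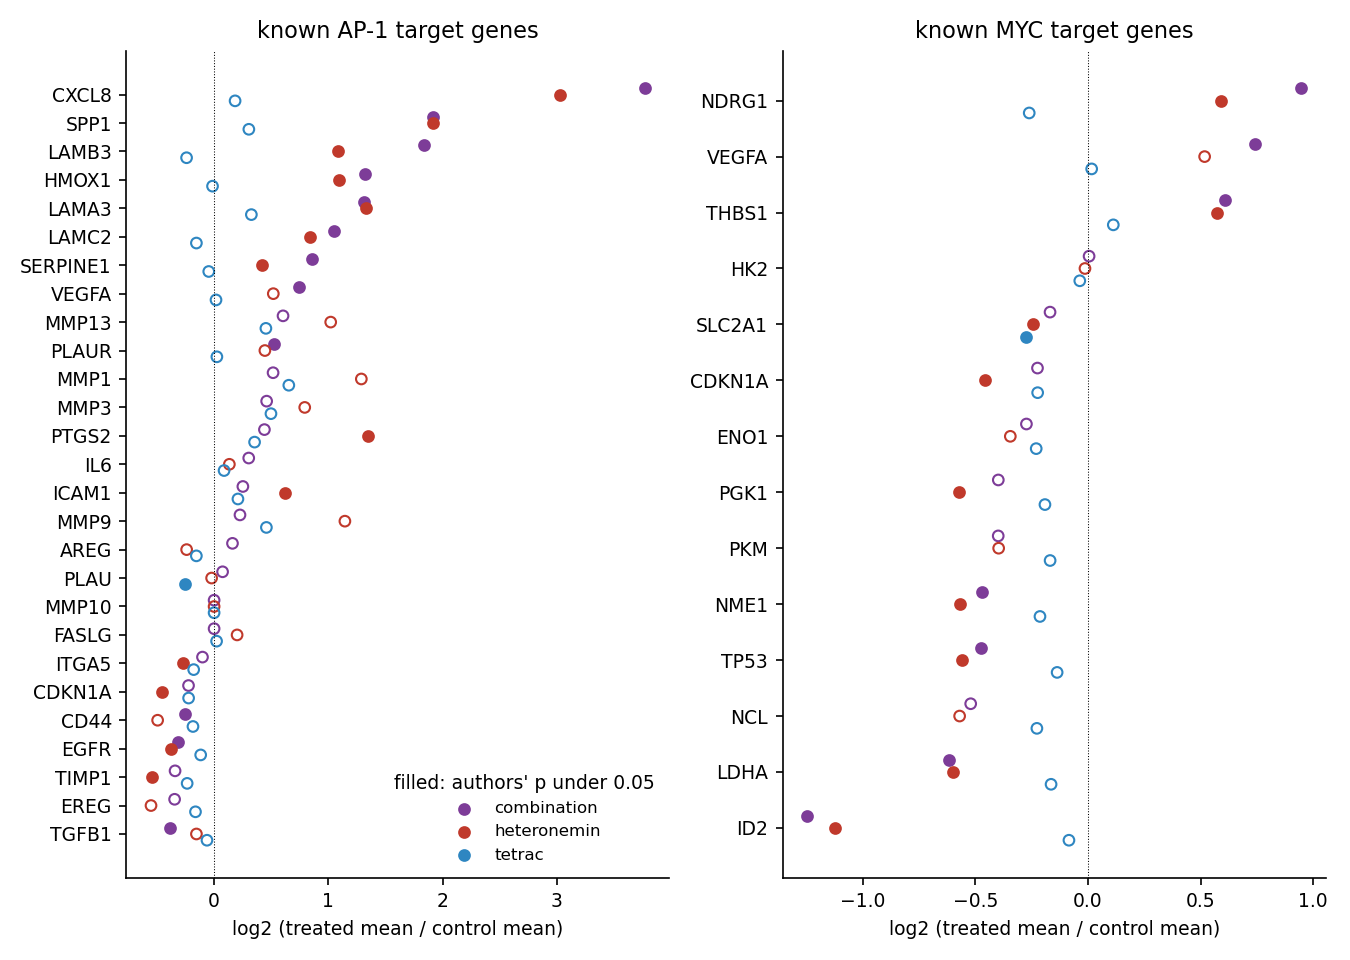
Log2 ratio of treated over control mean for the 27 measured genes of the AP-1 target list (left) and the 14 of the MYC target list (right), in the combination, heteronemin and tetrac comparisons; filled points had an authors' p under 0.05, and open points did not or had none. CXCL8 reached 3.77 under the combination and 3.03 after heteronemin, ID2 lay at -1.25 and -1.12, and 1 gene in each list was called after tetrac.

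Beta-catenin, encoded by CTNNB1 and the transducer of WNT signals to MYC, was the 1 called gene of 7 WNT genes, a share near the 14.1% and 15.9% of lower calls over all tested genes; 5 of the 7 were at the floor in control. Its authors' mean was 2281 normalized counts under the combination, 2231 after heteronemin, 2985 after tetrac and 3253 in control. It fell by 0.51 under the combination and by 0.54 after heteronemin on the log2 scale, while MYC was at 0.18 and -0.07. The control mean of CTNNB1 lay within the range of MYC's 51 neighbours in level, whose median log2 ratios were -0.31 and -0.42. The part of level in the CTNNB1 fall was not tested. Among 3 measured immediate early and stress genes, HMOX1 rose in both heteronemin groups, the stress cytokine gene GDF15 rose 1.98-fold under the combination, and SRF, which encodes serum response factor, was not called.

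Of 44 other transcription factors measured, 2 of 41 tested rose and 9 fell under the combination, where 8.16% and 14.1% of all tested genes did. After heteronemin 3 of 42 tested rose and 13 fell, where 11.2% and 15.9% of all tested genes did, and 0 of 41 were called after tetrac, where 1.26% were. The risers under the combination were SNAI1, a repressor of E-cadherin transcription, at 2.93-fold, and ZEB1, at 2.04-fold from a control mean of 33.9 near the floor. RUNX1T1 rose 3.74-fold after heteronemin from the floor in control. ID2 and ID1 were the largest falls under the combination, at log2 ratios of -1.25 and -0.63.

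By a rule of smallest distance over the 3 log2 ratios against control, 716 other genes not at the floor throughout were ranked for likeness to each member; the 3 comparisons share the control group, so the distance describes these 4 means only. The nearest to JUN were SPP1 (distance 0.42), HKDC1 (0.65) and NRP1 (0.71), all with control means of 42.8 or less. The nearest to MYCL were HKDC1 (0.16), NRP1 (0.37) and POPDC3 (0.40). HKDC1 encodes a hexokinase family member and NRP1 a semaphorin and VEGF co-receptor. NR4A3 was nearest to CHP1 (0.12) and CTSK (0.16), and MYC to OCLN (0.04), ACVR1 (0.05) and LAMA5 (0.06). The members themselves were left out of the genes compared. JUN had no gene as near to it as the other 3 members had. The distance is not scaled by the size of the ratios. JUN ranked 2 and 4 of 770 under the combination and after heteronemin, where few genes lie, so its larger distances are not read as a trait.

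All 11 measured epithelial markers stood above the floor in every group, with a summed authors' mean of 9027 normalized counts under the combination, 8118 after heteronemin, 8302 after tetrac and 9106 in control. KRT7 was barely above it in control, at 34.1. That level lay within the range of MYCL's 51 neighbours, whose median log2 ratio was 1.03 after heteronemin. Single markers moved both ways: after heteronemin KRT7 and CLDN3 rose by 1.30 and 0.40 and CDH1 and ST14 fell by 0.45 and 0.64 on the log2 scale, under the combination KRT7 and CLDN7 rose and ST14 fell, and after tetrac OCLN fell. The 15 measured markers of blood, endothelial and stromal cells summed to 760, 910 and 668 in the treated groups and 533 in control, where 10 of them were at the floor; 2 of 14 tested, CD34 and COL1A1, were called higher after heteronemin, near the 11.2% of all tested genes. Their part in the values above was not tested. The geometric mean of the housekeeping genes lay between 296.1 and 299.6 in the 4 groups, and their median log2 ratio was -0.02 under the combination, -0.08 after heteronemin and -0.04 after tetrac. If the authors' biological normalization used these genes, their even geometric mean follows from it and is no check of the scaling. Of these 30 genes, 0 were called higher and 3 lower under the combination, 2 higher and 8 lower after heteronemin, and 0 after tetrac. Over all tested genes, 8.16% were called higher and 14.1% lower under the combination, and 11.2% and 15.9% after heteronemin. After tetrac 1.26% of all tested genes were called in either direction.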

How the data were processed

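RNA from 12 samples of HCT-116 cells, 3 in each of 4 groups, was counted with the NanoString PanCancer Progression panel, per the labels' protocols. The authors normalized raw counts in nSolver 4.0 with a positive control factor per sample and a biological normalization, per the series' design text. In each of 3 tables the authors deposited a normalized signal (1 mean per group), a signed fold change, treated here as a score, and a p-value; the score matched the quotient of the means within 0.00511, with identical control columns across tables. The test behind the p-value and the raw depth are not stated in the labels or file headers, and only group means were analysed.

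From the means, log2 ratios of treated over control were computed over all 770 genes. The limma test planned for values per sample was not used, since the tables hold means. Genes were called at the authors' p under 0.05 and Benjamini-Hochberg adjusted over each table. The members and the 11 lists (134 of 311 distinct symbols measured) were chosen with earlier results of these data known. Named genes were the members, all measured genes of the AP-1, kinase, nuclear receptor and MYC lists, the largest called genes of the other lists, 6 further genes fixed by name, and the 3 genes most like each member; some genes that these rules name are not reported here. Symbols were taken as listed, 755 of 770 current in RefSeq; promoter windows came from RefSeq on GRCh38.p14. Call counting was tested on simulated tables. Python 3.11.15, numpy 2.4.6, pandas 2.3.3, scipy 1.17.1 and matplotlib 3.10.9 were used.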

Additional observations from a re-analysis of the deposited data

How the results depend on the processing

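Leaving out replicates was not run, and depth limits cannot be given, since only group means were used. No paired analysis was possible because the tables hold group means. Benjamini-Hochberg adjustment of the printed p kept JUN and MYCL under 0.05 in both heteronemin groups and moved NR4A3 to an adjusted p of 0.120 under the combination and 0.0828 after heteronemin. With the largest p that rounds to the printed one, all 6 calls were lost, as was every other call in the 3 tables: the adjusted p was 0.0715 for JUN and MYCL and 0.150 for NR4A3 under the combination, and 0.0859 for JUN and MYCL and 0.124 for NR4A3 after heteronemin. These changes leave the log2 ratios at 2.25 for JUN, 1.52 for MYCL and 0.54 for NR4A3 under the combination and 1.81, 1.69 and 0.66 after heteronemin. At a p threshold of 0.01 the calls of NR4A3 were lost, at its printed p of 0.02 and 0.01. With 100 added to both means, the log2 ratio was 1.61 for JUN and 0.59 for MYCL under the combination and 0.68 for MYCL after heteronemin, since low means are pulled together. After subtraction of the median of genes of like control level, it was 0.66 for MYCL and 0.051 for NR4A3 after heteronemin. No tetrac call passed adjustment of the printed p either. Among list counts after heteronemin, a p threshold of 0.01 took MYC targets called lower to 1 of the 7, other transcription factors to 4 of the 13 and kinases to 0 of the 3. The share of all genes called at that threshold was not computed. Addition of 33 brought MYCL to 0.99 under the combination and 1.12 after heteronemin. That addition and subtraction of the housekeeping or panel median moved the members' ratios, and those between treatments where run, by less than 1.5-fold. Signs turned for MYC alone: after heteronemin to 0.0072 with the housekeeping median and 0.35 with genes of like control level subtracted, and for heteronemin over tetrac to -0.0075 with the panel median subtracted.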
